A study of Danio rerio with 6 samples.

Results

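The SLC25 genes encode the carriers that move metabolites, nucleotides, cofactors and ions across the inner mitochondrial membrane. All rows of the deposited gene count table whose symbol begins with slc25a were taken as members, which gave 56 of 30954 named genes. The study compared liver RNA of wild-type (WT) zebrafish with that of zebrafish in which scd, the gene of stearoyl-CoA desaturase, had been knocked out with CRISPR-Cas9. There are 3 WT and 3 scd knock-out libraries, all of fish held in water of 28 °C, and the latter are called mutant here after their labels. The sources used here do not give strain, age, sex, feeding state, the allele, or whether a library is 1 fish or a pool. The p-values thus cover no more than the spread between these 6 samples, part of which may be technical.

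Carriers of this family share a fold of paired membrane helices and mostly work as exchangers, swapping a substrate of the matrix for one of the cytosol. In liver they join the mitochondrial and cytosolic steps of urea synthesis, gluconeogenesis, fatty acid oxidation and citrate-fed lipid synthesis. The adenine nucleotide carriers export the ATP made by oxidative phosphorylation. The substrates named below are known mainly from the human, mouse or yeast proteins, and no transport was measured here.

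Sequencing depth was alike in the libraries, with total counts from 22736924 to 26021730. Levels are CPM, a gene's counts scaled to a common library size with the TMM factors of edgeR (trimmed mean of M-values). Each log2 fold change sets mutant against WT, so that a negative value is a lower level in the mutant set, and is given with its standard error (SE). Hepatocyte markers were present in all 6 libraries, but unevenly. They summed to 78216, 73933 and 87917 CPM in the WT set and to 110222.5, 44483 and 59858 CPM in the mutant set. Their part in the levels of the members was not tested. The libraries were uneven in other ways too. Mutant replicate 3 held 0.0433% vitellogenin counts against 44.1% to 57.3% elsewhere, had a TMM factor of 2.97, and had erythrocyte markers at 2429 CPM against at most 373 CPM elsewhere. Oocyte and gonad markers (22 genes) together reached 172 CPM in WT replicate 1, 208 CPM in WT replicate 2 and 305 CPM in mutant replicate 1, and at most 2.92 CPM elsewhere. Exocrine pancreas markers summed to 216, 2921 and 2603 CPM in the WT set and to 710, 524 and 793 CPM in the mutant set. Leukocyte markers summed to 487 CPM in WT replicate 3 and to 55.3 to 189 CPM elsewhere. The part of these markers in the levels of slc25a25a, slc25a33, slc25a37 and slc25a43, each higher in WT replicates 2 and 3 than in WT replicate 1, was not tested. The targeted transcript, scd, stood at 18.1 to 431 CPM in the WT set and 56.7 to 693 CPM in the mutant set, so its level does not check the labels.

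Between 48 and 53 of the 56 members had at least 1 count in a given library, and 46 passed the low-count filter. At an adjusted p under 0.05 (edgeR quasi-likelihood test over all 12889 genes kept), 1 member fell and 0 rose. This call rule took 0.124% of all genes as lower and 0.116% as higher. The member that fell was slc25a36a, a pyrimidine nucleotide carrier. At an unadjusted p under 0.05, 6 of the 46 members lay lower and 4 higher, 13.04% and 8.70% of them, where the background over all genes was 8.29% and 10.8%. The median log2 fold change of the 46 was -0.24, and 28 of them had a negative value. The median of all genes was 0.04. Without mutant replicate 3 the members' median was -0.05, where that of all genes was -0.03, so the lower median of the family rested on that library. DESeq2, which called 4.47% of all genes lower and 4.19% higher, called 3 members lower and 2 higher. Of the other settings, total named counts called 0.566% of all genes lower and 3.06% higher, and no filter 0.506% and 0.406%. The replicate block called 0.0155% lower, and the oocyte covariate in 5 libraries 0.391% lower and 0.407% higher. Under TMM, mutant replicate 3 was also the library with the lowest level of 19 of the 46 members and the highest of 9. These ranks depended on the scaling. With total named counts slc25a1b, slc25a28 and slc25a42, lowest there under TMM, were highest there, while slc25a38a stayed lowest. How many members changed in this way was not counted.

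**Figure D1:**
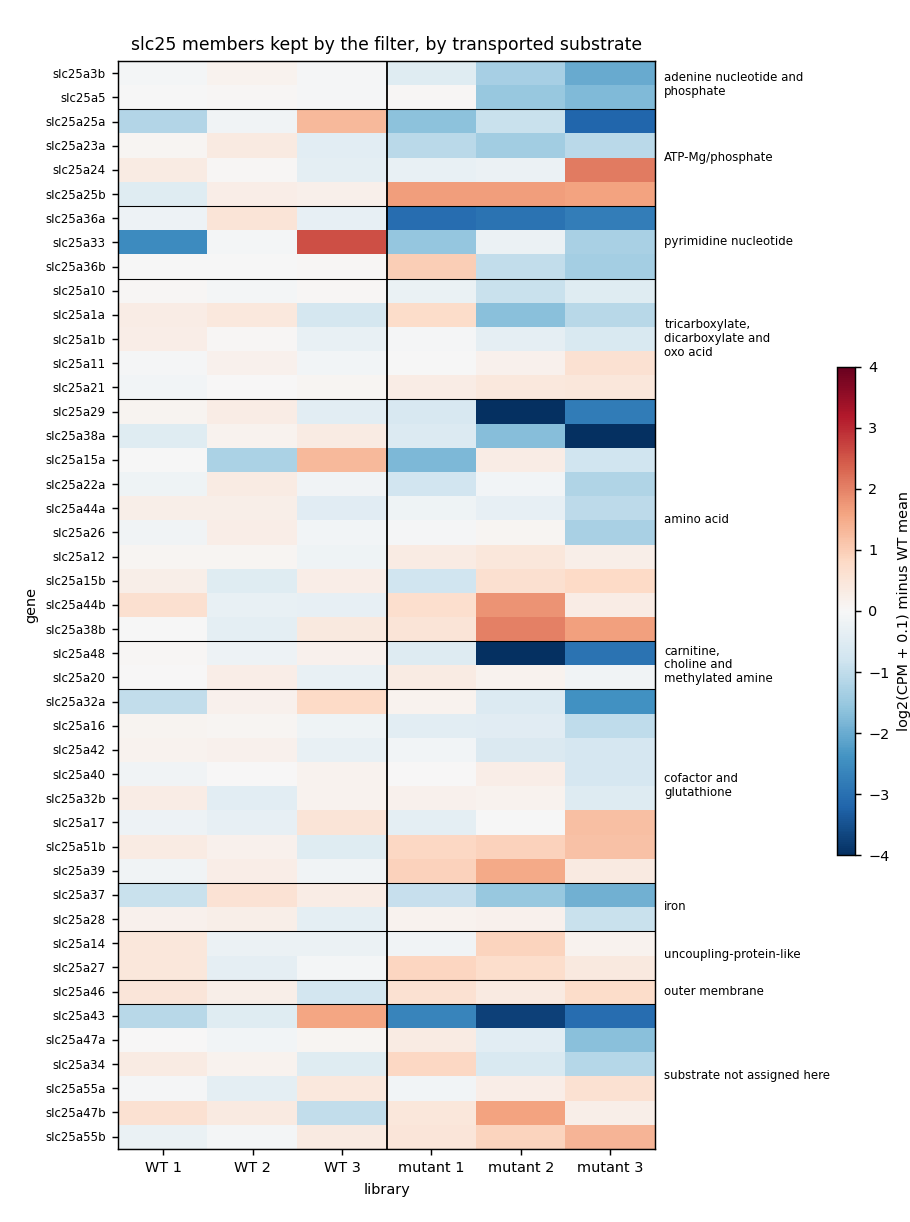
Level of 45 of the 46 members that passed the filter in each library, as log2(CPM + 0.1) minus the mean of the 3 WT libraries, with colours limited to 4 in either direction and rows grouped by transported substrate. Only the row of slc25a36a belongs to a called gene. Under the TMM scaling shown, mutant replicate 3 holds the lowest level of 19 of the 46 members and the highest of 9.

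Counts of the whole family made up 0.602%, 0.544% and 0.577% of named counts in the WT set and 0.410%, 0.306% and 0.625% in the mutant set, each in the order of replicates 1, 2 and 3. The groups overlapped, since mutant replicate 3 had the highest share. With vitellogenin left out of the total, the shares were 1.08%, 1.11% and 1.15% in WT and 0.960%, 0.716% and 0.625% in mutant libraries, and the groups no longer overlapped. The adenine nucleotide carrier slc25a5 supplied between 60.7% and 79.7% of the family's counts in each library. With both slc25a5 and vitellogenin left out, the shares were 0.255%, 0.304% and 0.452% in WT and 0.195%, 0.273% and 0.193% in mutant libraries. The groups then overlapped. By itself slc25a5 overlapped too with vitellogenin left out, as mutant replicate 1 lay above WT replicate 3. The lack of overlap thus held for the sum of the family, and neither for slc25a5 nor for the other members together. In bulk tissue, fewer cells of a type and less RNA per cell cannot be told apart, for these shares and for the levels that follow.

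Pyrimidine nucleotide carriers supply mitochondria with the cytosine, uracil and thymine nucleotides needed to copy and transcribe mitochondrial DNA. The level of slc25a36a was 17.96, 29.5 and 16.2 CPM in the WT set and 2.39, 2.55 and 2.94 CPM in the mutant set. Under TMM every mutant library lay far below the lowest WT library, and the mutant values differed little among themselves. The means were 21.2 ± 7.26 and 2.63 ± 0.282 CPM (SD, n = 3 each). This is an 8.05-fold lower level, a log2 fold change of -3.01 ± 0.33 (SE, edgeR, adjusted p = 0.0284). Mutant replicate 1 held vitellogenin and oocyte transcripts, mutant replicate 2 vitellogenin and few oocyte transcripts, and mutant replicate 3 little of either. The part of this make-up in the level of slc25a36a was not tested beyond the oocyte covariate given below.

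The direction was the same under every alternative tried, and the call was not. As raw counts it had 374, 564 and 288 in WT and 39, 62 and 206 in mutant libraries, so the groups did not overlap before any scaling either. Over the 15 alternative analyses the log2 fold change lay between -3.19 and -1.96, and the gene was called in 8 of them. The adjusted p was over 0.05 without WT replicate 1 (0.0888), WT replicate 2 (0.0872), WT replicate 3 (0.0636), mutant replicate 2 (0.173) or mutant replicate 3 (0.0512), and with the replicate number as a block (0.0755). It was also over 0.05 with total named counts in place of TMM (0.152), a scaling that put the all-gene median at 0.98. The log2 fold change of -1.96 then stood at -2.94 relative to that median. With the summed oocyte markers as a covariate it was -2.94 ± 0.38 (adjusted p = 0.0404).

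Its paralogue slc25a36b was not lower as a group. It stood at 8.69, 8.70 and 9.27 CPM in the WT set and at 17.8, 4.49 and 3.39 CPM in the mutant set (log2 fold change -0.06 ± 0.61, adjusted p = 0.964). Mutant replicate 1 was above and mutant replicates 2 and 3 below the narrow WT range, and leaving out mutant replicate 3 gave 0.30, while leaving out mutant replicate 1 gave -1.20. Mutant replicate 1 was also the library with the most oocyte transcripts, and their part in this level was not tested. The third carrier of this substrate group, slc25a33, which insulin and IGF1 induce in human cells, stood at 13.2, 71.9 and 452 CPM in the WT set and at 25.5, 63.7 and 30.8 CPM in the mutant set. The WT libraries alone spanned the whole range of the 6. Its log2 fold change of -2.16 ± 1.17 (adjusted p = 0.361) came to -0.10 without WT replicate 3.

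**Figure D2:**
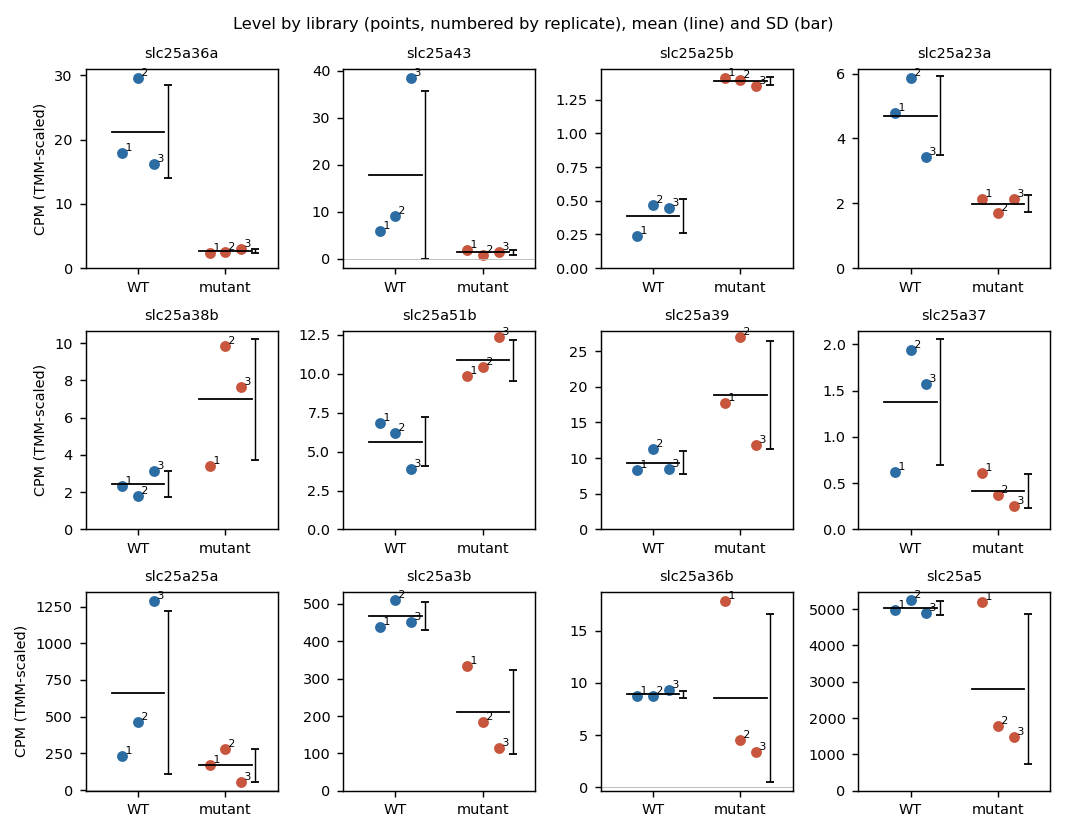
TMM-scaled CPM by library for the 10 members with an unadjusted p under 0.05, and for slc25a36b and slc25a5. Points are libraries numbered by replicate, the line is the group mean and the bar its SD. In slc25a36a the mutant points lie together between 2.39 and 2.94 CPM, below WT points of 16.2 to 29.5 CPM.

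Among the carriers of adenine nucleotides and phosphate, the raw materials and product of ATP synthase, slc25a5 exchanges ADP for ATP. It stood at 4971, 5247 and 4883 CPM in the WT set and at 5181, 1776 and 1466 CPM in the mutant set. Under TMM mutant replicate 1 lay within the WT range and mutant replicates 2 and 3 well below it. The log2 fold change of -0.84 ± 0.65 thus missed the threshold (adjusted p = 0.508). Leaving out mutant replicate 1 gave -1.66 ± 0.37 (adjusted p = 0.0789), and leaving out mutant replicate 3 gave -0.55. With total named counts mutant replicate 3 lay within the WT range and mutant replicates 1 and 2 below it (log2 fold change -0.34). The phosphate carrier slc25a3b, which brings in the phosphate that ATP synthase uses, stood at 439, 512 and 453 CPM in the WT set and at 334, 185 and 115 CPM in the mutant set. All mutant libraries lay below WT here (log2 fold change -1.15 ± 0.47, adjusted p = 0.245), but with total named counts the groups overlapped. The other members of these kinds were nearly without counts. Over the 6 libraries slc25a4 had 6 counts, slc25a6 had 1 and slc25a3a had 6. The sources used here do not say how reads that match several copies were counted, so the division of counts between near-identical copies is uncertain throughout the family.

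The ATP-Mg/phosphate carriers adjust the adenine nucleotide content of the matrix, and most of them sense calcium through an added domain. For slc25a25a the levels were 232, 466 and 1288 CPM in the WT set and 168, 279 and 56.9 CPM in the mutant set, and the groups overlapped (log2 fold change -1.98 ± 0.80, adjusted p = 0.244). For slc25a25b they were 0.240, 0.472 and 0.450 CPM in the WT set and 1.41, 1.40 and 1.35 CPM in the mutant set. These low levels rest on 5 to 9 counts per WT library and 23 to 95 per mutant library. The WT levels lay under the low-count filter, so slc25a25b was tested only through the mutant set, where it is high. Its values are thus given as description. The groups were apart by more than the spread within either one (1.84 ± 0.48), yet the adjusted p of 0.125 did not pass the threshold over all genes. Another member of the kind, slc25a23a, had 4.80, 5.87 and 3.43 CPM in the WT set and 2.14, 1.69 and 2.14 CPM in the mutant set (-1.24 ± 0.33, adjusted p = 0.132). Its groups did not overlap under TMM, but they did with total named counts.

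Its copy slc25a23b did not pass the filter. It had 2 counts over the WT libraries and 0, 18 and 189 counts in mutant replicates 1 to 3, which makes a ratio of 53.9 with a 95% counting interval from 14.7 to 448. Mutant replicate 3 supplied most of these counts, and mutant replicate 1 had none. A further member, slc25a24, also had its highest level there, at 3.95 CPM, against 0.618 to 1.104 CPM in the other 5 libraries. The erythrocyte markers were raised in the same library, and their part in these levels was not tested. No count was found for slc25a24l in any library, which allows a level of up to 0.0520 CPM over the WT and 0.0271 CPM over the mutant libraries at 3 counts per group.

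Of the 5 carriers of citrate, dicarboxylates and oxo acids, 0 had an unadjusted p under 0.05, where 19.1% of all genes had one. The citrate carrier slc25a1b, which exports the citrate used for fatty acid and sterol synthesis, stood at 90.2, 77.0 and 60.7 CPM in the WT set and at 73.1, 58.9 and 48.6 CPM in the mutant set (log2 fold change -0.34 ± 0.30, adjusted p = 0.565). The groups overlapped, as they did for its copy slc25a1a, which ranged from 0.206 to 1.53 CPM over the 6 libraries. The dicarboxylate carrier slc25a10 ranged from 37.7 to 40.9 CPM in the WT set and from 21.5 to 33.3 CPM in the mutant set. These did not overlap, but with total named counts the groups did. The oxoglutarate carrier slc25a11, a part of the malate-aspartate shuttle, ranged from 23.4 to 28.3 CPM in the WT set and from 24.8 to 38.96 CPM in the mutant set. The oxodicarboxylate carrier slc25a21, which serves lysine and tryptophan breakdown, was the steadiest of the 46 members under TMM. Its highest library was 1.47 times its lowest, although the mutant libraries, at 5.21 to 5.73 CPM, lay above the WT ones at 3.89 to 4.44 CPM. With total named counts its groups overlapped.

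Of the 13 amino acid carriers, 10 passed the filter. Both copies of slc25a38, the mitochondrial glycine importer that feeds haem synthesis, had groups that did not overlap under TMM, in opposite directions. With total named counts the groups of the b copy overlapped. The a copy stood at 162, 250 and 281 CPM in the WT set and at 155, 69.3 and 3.59 CPM in the mutant set. Mutant replicate 1 lay just under the WT range and mutant replicate 3 was 78.2 times below the highest library, the widest range among the 46 members kept. The log2 fold change was -1.61 ± 1.08 (adjusted p = 0.451) and -1.07 without mutant replicate 3. The b copy stood at 2.35, 1.78 and 3.15 CPM in the WT set and at 3.43, 9.88 and 7.63 CPM in the mutant set (1.53 ± 0.45, adjusted p = 0.152). The erythrocyte markers were highest in mutant replicate 3, the library in which the a copy was lowest, and their part in these levels was not tested.

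The carrier of basic amino acids, slc25a29, stood at 4.90, 5.61 and 3.32 CPM in the WT set and at 2.88, 0.0823 and 0.556 CPM in the mutant set (log2 fold change -2.03 ± 1.02, adjusted p = 0.330). The mutant libraries were all below WT but scattered widely. In mammals the aspartate-glutamate carrier of liver is mainly SLC25A13, and that of muscle and brain SLC25A12. Here slc25a13 had 1 count over the 6 libraries, while slc25a12 stood at 10.1 to 12.2 CPM in the WT set and 13.4 to 15.8 CPM in the mutant set. The branched-chain amino acid carrier copies slc25a44a and slc25a44b stood at 2.75 to 4.56 and 3.43 to 6.91 CPM in WT, and at 1.83 to 3.43 and 5.35 to 15.5 CPM in the mutant set. For the ornithine carriers of the urea cycle, slc25a15a and slc25a15b, all 6 libraries lay between 0.552 and 5.45 CPM and between 1.35 and 4.24 CPM, with overlapping groups. The glutamate carrier slc25a22a and the S-adenosylmethionine carrier slc25a26 overlapped too. Under TMM both were lowest in mutant replicate 3, at 3.58 and 5.26 CPM, but with total named counts both were highest there. Of the remaining glutamate carriers, slc25a18 had 4 counts in WT and 67 in mutant libraries, 63 of them in mutant replicate 3, and slc25a22b had 5 counts, all in mutant replicate 1.

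The carnitine-acylcarnitine carrier slc25a20, which brings long-chain acyl groups to the matrix for oxidation, was close in the groups under TMM. It stood at 64.6, 76.2 and 52.3 CPM in the WT set and at 80.3, 69.5 and 57.1 CPM in the mutant set (log2 fold change 0.10 ± 0.29, adjusted p = 0.878). The choline carrier slc25a48 stood at 170, 143 and 186 CPM in the WT set and at 115, 3.13 and 21.1 CPM in the mutant set. All mutant libraries lay below WT, under each of the 3 scalings tried, but mutant replicate 1 was near the WT range and mutant replicate 2 was far from it. The log2 fold change was -1.84 ± 1.102 (adjusted p = 0.408), and -3.81 ± 0.85 without mutant replicate 1 (adjusted p = 0.0789).

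Carriers of cofactors and glutathione gave 2 of 9 kept members with an unadjusted p under 0.05, both higher, where 10.8% of all genes were higher by this rule. The NAD carrier slc25a51b stood at 6.87, 6.18 and 3.88 CPM in the WT set and at 9.87, 10.4 and 12.4 CPM in the mutant set (log2 fold change 0.95 ± 0.30, adjusted p = 0.171). The glutathione carrier slc25a39 stood at 8.35, 11.3 and 8.49 CPM in the WT set and at 17.7, 26.9 and 11.9 CPM in the mutant set (1.01 ± 0.35, adjusted p = 0.196). Neither pair of groups overlapped under TMM, but those of slc25a51b did with total named counts. The relative of slc25a39, slc25a40, did overlap, with all 6 libraries between 4.73 and 9.05 CPM. The coenzyme A carriers slc25a42 and slc25a16 ranged from 9.05 to 12.5 and 10.1 to 12.3 CPM in WT, and from 6.89 to 10.2 and 5.62 to 8.46 CPM in the mutant set. Carriers of folate and FAD (slc25a32a and slc25a32b) and of the peroxisome (slc25a17) overlapped between the groups, with adjusted p from 0.561 to 0.925. The second NAD carrier copy, slc25a51a, had 4 counts over the 6 libraries.

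Mitoferrins carry iron into the matrix for haem and iron-sulphur clusters, and zebrafish that lack slc25a37 are anaemic. The level of slc25a37 was 0.624, 1.94 and 1.57 CPM in the WT set and 0.613, 0.370 and 0.257 CPM in the mutant set. WT replicate 1 and mutant replicate 1 nearly touched, at 13 and 10 counts (log2 fold change -1.78 ± 0.62, adjusted p = 0.198). This gene marks developing red cells. Under TMM it was lowest in mutant replicate 3, where the erythrocyte markers, hbaa1 and alas2 among them, were highest. With total named counts mutant replicate 3 was instead the highest of the mutant set and lay above WT replicate 1, so the groups overlapped. The part of red cells in the level of slc25a37 was not tested. The other mitoferrin, slc25a28, which is expressed in many tissues, stood at 42.5, 44.1 and 28.7 CPM in the WT set and at 41.7, 42.7 and 20.1 CPM in the mutant set (-0.14 ± 0.36, adjusted p = 0.859).

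The uncoupling-protein-like members slc25a14 and slc25a27 overlapped between the groups. For slc25a14 the levels were 7.06, 4.35 and 4.33 CPM in the WT set and 4.66, 9.51 and 5.59 CPM in the mutant set (log2 fold change 0.33 ± 0.38, adjusted p = 0.667). The outer-membrane member slc25a46, which bears on mitochondrial fission rather than transport, stood at 4.66, 3.93 and 1.97 CPM in the WT set and at 5.09, 4.24 and 5.62 CPM in the mutant set (0.50 ± 0.38, adjusted p = 0.496).

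Of the 7 members given no substrate here, slc25a43 had the lowest log2 fold change of the family. It stood at 5.91, 9.17 and 38.3 CPM in the WT set and at 1.96, 0.864 and 1.47 CPM in the mutant set. The groups did not overlap under any of the 3 scalings, but WT replicate 3 set much of the WT mean (-3.64 ± 0.80, adjusted p = 0.1003). The value was -2.42 ± 0.45 without that library (adjusted p = 0.149). The most counted of these members, slc25a55a, stood at 52.5, 41.4 and 73.0 CPM in the WT set and at 50.7, 64.7 and 83.2 CPM in the mutant set (0.25 ± 0.33, adjusted p = 0.715). The copies slc25a47a and slc25a47b, whose mammalian counterpart is largely confined to liver, overlapped between the groups, as did slc25a34. No WT count was found for slc25a35, which had 0, 5 and 19 counts in mutant replicates 1 to 3. Pooled over the mutant set this was at least 4.17-fold higher against a floor of 3 counts over the WT group. Mutant replicate 3 supplied most of these counts, and mutant replicate 1 had none, as in WT.

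**Figure D3:**
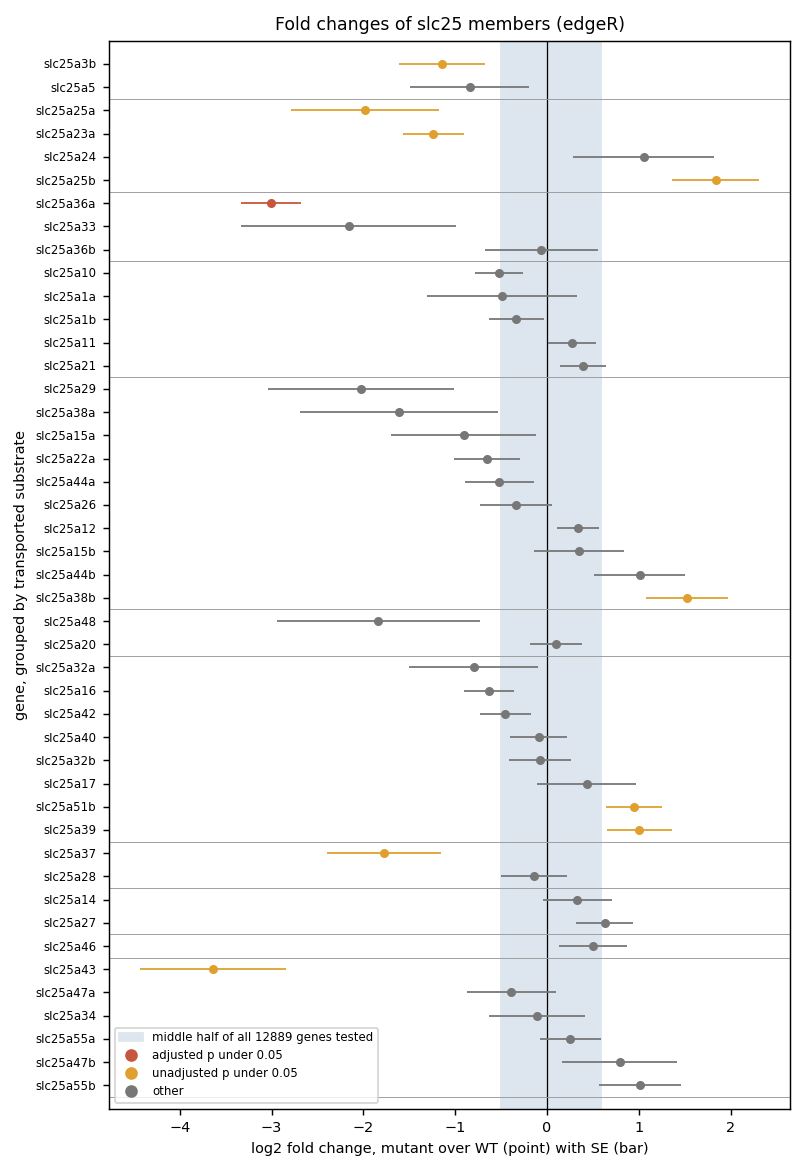
Log2 fold change (point) and SE (bar) of 45 of the 46 members that passed the filter, ordered by transported substrate, with the interquartile range of all 12889 genes shaded. The point of slc25a36a, at -3.01, is the one with an adjusted p under 0.05, and slc25a43 lies further from 0 with a wider bar.

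Groups that did not overlap were counted over the whole family. Under TMM, 7 of the 46 members lay higher in every mutant library than in any WT library and 10 lay lower, 15.2% and 21.7% of them. Over all genes these shares were 15.1% and 12.8%. Under all 3 scalings (TMM, total named counts and total counts without vitellogenin) 2 members stayed higher, slc25a25b and slc25a39, and 5 stayed lower, slc25a29, slc25a36a, slc25a38a, slc25a43 and slc25a48. These are 4.35% and 10.9% of the members, where all genes gave 8.46% and 2.47%. Of the higher ones, slc25a25b passed the filter only through its mutant levels.

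Zebrafish kept many duplicated genes, and the family holds 13 pairs of a and b copies. In 9 of these pairs both copies passed the filter. The share of the a copy in the counts of a pair is set within a library and does not depend on scaling. For slc25a36 the a copy supplied 67.4%, 77.3% and 63.6% of the pair in WT and 11.8%, 36.3% and 46.4% in mutant libraries. The more counted copy thus differed between the groups, with means of 69.4% ± 7.06 and 31.5% ± 17.8 (SD, n = 3 each). For slc25a44 the a copy supplied 39.7%, 56.2% and 44.5% in WT and 32.7%, 16.4% and 25.4% in mutant libraries, again without overlap. For slc25a38 it supplied 98.6%, 99.3% and 98.9% in WT and 97.8%, 87.5% and 32.02% in mutant libraries, so mutant replicate 3 made most of the difference. Mean shares there differed by -26.5 percentage points, and by -6.24 without that library. In all, the a copy was lower without overlap in 5 of the 9 pairs and higher in 0, and in slc25a25 and slc25a55 the difference was about 1 percentage point (-1.14 and -1.01). Among 1166 pairs of symbols ending in a and b over the whole table, 14.3% were lower and 13.7% higher without overlap.

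**Figure D4:**
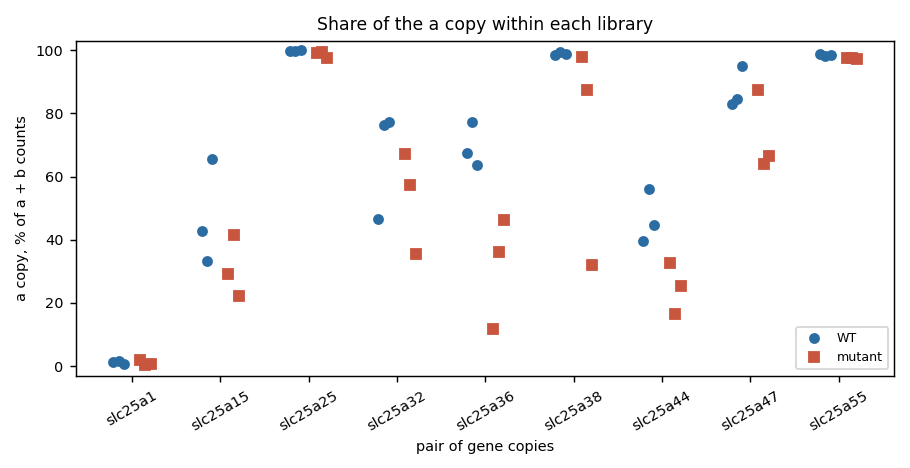
Share of the a copy in the summed counts of each pair of copies, in percent, for the 9 pairs with both copies kept. Circles are WT and squares mutant libraries. For slc25a36 the squares lie between 11.8% and 46.4%, below circles from 63.6% to 77.3%.

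Genes that work beside the carriers gave no call. Of 157 listed partners in the table, 144 passed the filter, and edgeR called 0 of them, where 0.241% of all genes were called. At an unadjusted p under 0.05, 14 lay higher and 8 lower, 9.72% and 5.56% of them, where all genes gave 10.8% and 8.29%. Their median log2 fold change was 0.07. With DESeq2, 6 partners were called higher and 3 lower, where it called 4.19% and 4.47% of all genes. The partner levels below are under TMM alone. Whether their groups overlap under the other scalings was not compared.

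In the list of pyrimidine nucleotide and mitochondrial DNA genes, 1 higher and 2 lower genes of 21 kept had an unadjusted p under 0.05. These are 4.76% and 9.52%, where all genes gave 10.8% and 8.29%. The median log2 fold change of the list was -0.16. The thymidine phosphorylase gene tymp stood at 3.65, 5.71 and 7.25 CPM in the WT set and at 16.2, 28.1 and 17.3 CPM in the mutant set (log2 fold change 1.89 ± 0.37, adjusted p = 0.0799). Every mutant library was above WT. The mitochondrial nucleoside diphosphate kinase gene nme4 lay lower, at 58.7, 49.7 and 86.4 CPM in the WT set against 34.7, 10.99 and 21.2 CPM (-1.54 ± 0.46, adjusted p = 0.155).

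The haem and iron list had 14 of 17 positive values (82.4%) and a median of 0.46, where 51.9% of all genes were positive. It shares alas2 with the erythrocyte markers. Its members with an unadjusted p under 0.05 were 4 higher and 1 lower, 23.5% and 5.88% of them, where all genes gave 10.8% and 8.29%. The ferrochelatase gene fech, whose enzyme inserts iron into haem, stood at 0.480, 0.524 and 0.450 CPM in the WT set and at 1.96, 2.02 and 1.14 CPM in the mutant set (adjusted p = 0.120). The coproporphyrinogen oxidase gene cpox stood at 5.04, 11.2 and 11.6 CPM against 36.4, 26.6 and 19.97 CPM in the mutant set (adjusted p = 0.120). All mutant libraries lay above WT for both genes. The uroporphyrinogen III synthase gene uros was the one lower, at 5.19, 4.77 and 3.20 CPM in the WT set and 1.04, 2.55 and 2.31 CPM in the mutant set (adjusted p = 0.216). The gene alas1, whose enzyme starts haem synthesis in liver, stood at 109.7, 97.1 and 117 CPM against 46.4, 79.9 and 14.5 CPM, also without overlap (adjusted p = 0.299). The erythrocyte markers summed to 290, 185 and 2429 CPM in the mutant set, and their part in these levels was not tested.

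The carnitine list had 1 higher and 2 lower genes of 9 kept at an unadjusted p under 0.05, with a median of -0.15. These are 11.1% and 22.2%, where all genes gave 10.8% and 8.29%. In it cpt1b, a gene of the enzyme that makes acylcarnitine, stood at 276, 347 and 66.0 CPM in the WT set and at 45.3, 31.8 and 29.4 CPM in the mutant set (log2 fold change -2.70 ± 0.62, adjusted p = 0.105). Its relatives cpt1aa and cpt1ab had log2 fold changes of 0.64 ± 0.50 and -0.91 ± 0.42 (adjusted p = 0.516 and 0.294). The gene cpt2, whose enzyme turns acylcarnitine back to acyl-CoA in the matrix, lay higher, at 15.2, 20.7 and 12.4 CPM against 22.2, 27.5 and 32.9 CPM (0.77 ± 0.29, adjusted p = 0.223). Beside the citrate carrier, the cytosolic NADPH-producing genes idh1 and me1 lay above WT in every mutant library, with log2 fold changes of 1.80 ± 0.45 and 1.61 ± 0.44 (adjusted p = 0.118 and 0.134). In the citrate and malate list 2 of 15 genes kept were higher at an unadjusted p under 0.05 and 0 lower. These are 13.3% and 0%, where all genes gave 10.8% and 8.29%. The 6 genes of the malate-aspartate shuttle had none with an unadjusted p under 0.05, where 19.1% of all genes had one. Neither had the 18 genes found of the machinery that imports carriers to the inner membrane. Listed with them was timm22, but no row bore that symbol, so it was not tested. The medians of the shuttle and import lists were -0.30 and 0.08.

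Uncoupling proteins and other carriers whose symbols do not begin with slc25a were listed too. The uncoupling protein gene ucp1 stood at 1944, 1748 and 2666 CPM in the WT set and at 1373, 368 and 569 CPM in the mutant set (log2 fold change -1.46 ± 0.61, adjusted p = 0.253). Under TMM all mutant libraries lay below WT, with mutant replicate 1 closest, as for slc25a3b and slc25a48. With total named counts the groups of slc25a3b overlapped, and mutant replicate 3 was the highest of its mutant set. Its relative ucp2 overlapped between the groups, at 24.9, 57.1 and 101 CPM against 10.2, 8.97 and 49.4 CPM. The receptor-like outer-membrane member mtch2 and mpc1, a subunit gene of the pyruvate carrier, which is of another protein family, lay within 26.4 to 35.8 and 36.4 to 51.05 CPM in all 6 libraries.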

How the data were processed

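RNA of zebrafish liver was sequenced in 3 WT and 3 mutant libraries. The values are raw counts per gene as the authors deposited them. Reads passed through Trimmomatic 0.36, STAR 2.7 and featureCounts 1.5.2 with the build GRCz11, per the submitters' processing notes. The sources used here give neither the strand setting nor the treatment of reads with several matches. A row with no gene name, 0.568% to 1.02% of counts, was left out, which leaves 22525340 to 25852954 named counts per library. Of the member symbols, 55 of 56 are also RefSeq symbols.

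Counts were tested with edgeR 4.0.16 in R 4.3.3 (filterByExpr, TMM, robust quasi-likelihood, Benjamini-Hochberg over 12889 genes, threshold 0.05), without a replicate block. The SE was taken as the absolute log2 fold change over the root of the F statistic. Counting intervals (95%) and floors cover counting error only. Simulated counts of this comparison (12383 genes) showed a recovery of 0% at 2-fold, 30% at 4-fold and 94% at 16-fold, with 4 false calls among 115.

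Alternatives were DESeq2 1.42.0 size factors and Wald test, total counts, TMM without vitellogenin, no filter, the replicate block, limma-voom (limma 3.58.1), an oocyte covariate and each library left out. Members given with full values are the slc25a36 copies, those with p under 0.05, adjusted or not, and the member of highest mean CPM in each substrate group. Others, partner genes among them, were chosen after their values were seen. Members, lists and tests were chosen with earlier results of these data known. Of the members kept, 1 is counted in the totals but not reported here by itself.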

Additional observations from a re-analysis of the deposited data

How the results depend on the processing

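In the reported analysis 1 member was called lower and 0 higher. With total named counts 0 were lower, the median of the members moved from -0.24 to 0.39 (all genes 0.98), and 6 partner genes were higher. The Wald test of DESeq2 called 3 members lower (slc25a36a, slc25a43 and slc25a23a) and 2 higher (slc25a25b and slc25a38b), and 6 partners higher and 3 lower. Over all genes it called 560 lower and 525 higher, against 16 and 15 in the reported analysis. Without the filter 1 partner was higher and 1 lower, and with the oocyte covariate in the 5 libraries other than mutant replicate 3, an alternative chosen after seeing the data, 1 partner was higher. With one library left out, 0 to 1 members were lower. With vitellogenin out of the total, the family's share differed by -0.345 percentage points in place of -0.127. The labels do not say whether replicate numbers pair the libraries. The deviations of same-numbered libraries correlated at 0.30, -0.21 and 0.32, and those of other libraries at -0.49 to 0.41. With 3 libraries per group these values cannot settle the question. With the replicate number as a block, 0 members were called lower (slc25a36a -2.96, adjusted p = 0.0755).

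Signs turned for 5 named members, of which none was called. With total named counts slc25a1b was 0.45, slc25a28 0.50 and slc25a36b 0.30. The oocyte covariate gave slc25a28 0.064 in 6 libraries, and in 5 libraries it gave slc25a28 0.19, slc25a36b 0.16 and slc25a55a -0.019. With one library left out, slc25a14 ranged from -0.040 to 0.59, slc25a28 from -0.33 to 0.12 and slc25a36b from -1.20 to 0.30. The causes were not tested. Depth limits slc25a37, slc25a25b and the 10 members under the filter.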
